A study of Mus musculus with 6 samples.

Results

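Of the 26130 gene symbols in the count table, 48 name proteasome subunits or proteins that assemble, activate or inhibit the proteasome. They were chosen by name alone: the letters Psm, 1 of the letters a to g, and a number. The proteasome is the protease that degrades proteins tagged with ubiquitin. Its barrel-shaped 20S core is a stack of rings, with α subunits (Psma) that gate the entry and β subunits (Psmb) that include the catalytic ones, and the 19S regulatory particle (Psmc ATPases and Psmd subunits) binds, unfolds and feeds in the tagged protein. Interferons and other inflammatory signals induce alternative catalytic subunits, the immunosubunits, which change the peptides made for antigen presentation, and cells of blood origin carry them at high levels at rest.

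The RNA came from C57BL/6 mouse skeletal stem cells, progenitors of cartilage, bone and stroma, sorted by flow cytometry from the Achilles tendon-to-bone interface. Sham control (2 libraries), uninjured (1 library) and partially injured (3 libraries) interfaces were sampled, with the injury at day 7, and no transgene or drug is named for any group. One field of the uninjured library's labels calls it a sham, so injured libraries were compared with the sham controls and, in a further comparison sharing those libraries, with all 3 non-injured ones. Which surface markers were sorted on is not stated in the sources used. The labels do not tell separate animals from pools, so p-values reflect only the variation among these libraries, part of which may be technical.

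Library totals ran from 37506188 to 51089267 counts, of which the 48 genes took 0.306% to 0.565%. The cDNA was amplified from 150 pg of RNA without molecular identifiers, so counting error understates the true error. Genes usually selected for in this sort, Itgav and Cd200, were counted in every library. Of 5 genes usually selected against (Ptprc, Tek, Thy1, Enpep and Eng), all 5 were counted in sham 1 and only 2 in sham 2, with summed levels of 297 and 0.663 CPM (counts scaled to a common library total by TMM). The uninjured library and injured 1, 2 and 3 held 97.6, 121, 54.5 and 18.2 CPM of them. Values by library are listed in replicate order throughout. In bulk RNA, fewer cells of a type and less RNA per cell cannot be told apart.

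Of the 48 genes, 46 had counts in all 6 libraries. The exceptions were Psma8 and Psmb11, the core subunits of testis and thymus. No member passed an adjusted p of 0.05 in either comparison by edgeR's quasi-likelihood test, nor by DESeq2 or limma-voom. The smallest adjusted p by edgeR was 0.865 against sham control and 0.691 against all non-injured libraries. Over all genes edgeR called 0 of 16752 and 0 of 14110, a background of 0%, while DESeq2 called 2.66% and 3.34% and limma-voom 0.00597% and 0.0496%. At an unadjusted p under 0.05, edgeR gave 1 of 47 members tested against sham control (Psmf1, lower in injured) and 0 of 46 against all non-injured libraries. Of all genes, 4.64% reached that level against sham control (2.44% higher, 2.2% lower) and 7.43% against all non-injured libraries (3.71% higher, 3.72% lower).

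Most members nonetheless had a higher mean level in injured libraries. Of the 46 counted in every library, 36 had a log2 fold change above 0 against sham control, with a median of 0.36, beside 53.7% of all genes and a median of 0.09. Against all non-injured libraries the count was 39 and the median 0.43, beside 50.1% and 0.00. All 3 injured libraries lay above both sham libraries for 16 of the 46 and below both for 1, where 11.9% and 9.13% of all genes did so. Against the 3 non-injured libraries 13 lay wholly above and 0 wholly below, beside 9.23% and 7.07%. The comparisons use the same injured and sham libraries and are not independent of each other.

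**Figure D1:**
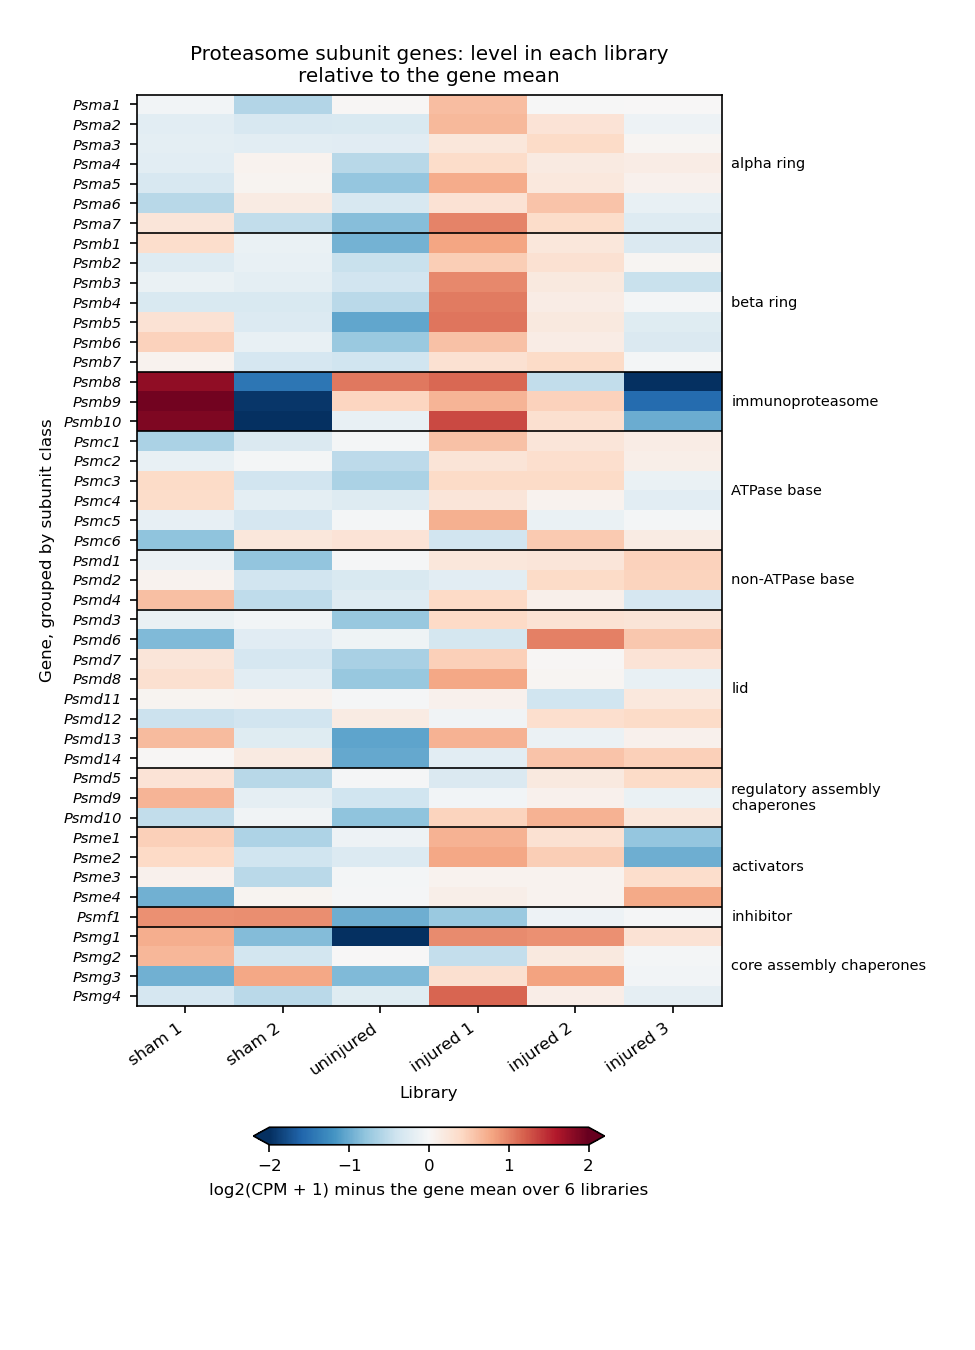
Level of the 46 members counted in every library, as log2(CPM + 1) minus the gene's own mean over the 6 libraries (colour, capped at 2 in either direction); rows are genes by subunit class and columns are libraries. The core genes are highest mainly in injured 1 and lowest mainly in the uninjured library, and Psmb8, Psmb9 and Psmb10 have the widest range.

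The 7 α subunit genes and the 7 standard β subunit genes of the 20S core all had a fold above 0 in both comparisons. Their median log2 fold change was 0.46 against sham control, where the groups did not overlap for 7 of 14, and 0.52 against all non-injured libraries, where they did not for 6 of 14. Of all genes, 53.7% and 50.1% had a fold above 0 in these comparisons. For 11.9% and 9.23% of all genes the injured libraries lay wholly above. The mean level of the 14 genes was 6.82 and 6.67 log2(CPM + 1) in sham 1 and 2 and 6.34 in the uninjured library, beside 7.52, 7.13 and 6.77 in injured 1 to 3. Injured 3 thus lay between the sham libraries on this measure. Injured 1 was the highest library for 11 of the 14 genes and the uninjured library the lowest for 10. Injured 1 also held the largest summed macrophage marker level, 4854 CPM, and a share of 14.7% ribosomal RNA counts, beside 15.05% in sham 1 and 2.89% to 5.32% elsewhere. Without injured 1, 11 of the 14 genes stayed above 0 against sham control, with a median of 0.29, and 14 against all non-injured libraries, with a median of 0.38. Without both sham 1 and injured 1 all 14 were above 0 in each comparison, with medians of 0.30 and 0.45.

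In the α ring, which shuts the core until an activator opens it, Psma2 (α2) stood at 110.5 and 102 CPM in the sham libraries, 103 in the uninjured one and 201, 154 and 119 in the injured ones. All 3 injured values exceeded the 3 others, and the log2 fold change against sham control was 0.57 ± 0.39 (SE; adjusted p = 0.865 by edgeR). Psma1 (α6) stood at 82.9 and 57.5 CPM in the sham libraries, 88.0 in the uninjured one and 133, 85.9 and 87.4 in the injured ones. Its injured values exceeded both sham values, but the uninjured library lay among them. Psma5 (α5) was measured at 71.4 and 92.3 CPM in the sham libraries, 51.8 in the uninjured one and 149, 103 and 94.8 in the injured ones, with injured 3 just above sham 2. The remaining α genes, Psma3, Psma4, Psma6 and Psma7, had log2 fold changes from 0.30 to 0.54 against sham control. For Psma3 and Psma4 the injured libraries lay wholly above all 3 others, while Psma6 and Psma7 overlapped.

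Among the β subunits without catalytic activity, Psmb4 (β7) stood at 89.5 and 89.2 CPM in the sham libraries, 75.9 in the uninjured one and 228, 122 and 107 in the injured ones. It had the smallest unadjusted p of all members against the non-injured libraries, with a log2 fold change of 0.84 ± 0.37 (SE; unadjusted p = 0.0549 and adjusted p = 0.691 by edgeR). Sham 1 and 2 were nearly equal for it, and injured 1 stood apart from injured 2 and 3. Psmb2 (β4) was the other β gene whose injured libraries lay wholly above the rest, at 107 and 116 CPM in the sham libraries, 94.0 in the uninjured one and 179.7, 159 and 132 in the injured ones. Psmb1 and Psmb3 (β6 and β3), which line the same ring, overlapped between groups, and Psmb3 ranged from 114 CPM in injured 3 to 304 in injured 1.

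The standard catalytic subunits are β5 (Psmb5, chymotrypsin-like), β1 (Psmb6, caspase-like) and β2 (Psmb7, trypsin-like). Psmb5 stood at 114 and 76.8 CPM in the sham libraries, 44.4 in the uninjured one and 196, 106 and 78.6 in the injured ones, the widest range of the 14 core genes at 4.41-fold. Psmb6 stood at 266 and 174 CPM in the sham libraries, 115 in the uninjured one and 289.8, 215 and 158 in the injured ones. Its sham and injured means, 220.2 ± 65.3 (SD, n = 2) and 221 ± 66.3 CPM (SD, n = 3), were nearly equal, and the sign of its log2 fold change of 0.00 ± 0.42 (SE) changed with the scaling (-0.070 with size factors by relative log expression). Psmb7 stood at 63.1 and 47.1 CPM in the sham libraries, 45.0 in the uninjured one and 74.4, 78.3 and 58.2 in the injured ones. None of the 3 separated the groups. For Psmb5 the sign against sham control depended on injured 1 (-0.045 without it).

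Levels of different genes can be compared only per transcript length. In CPM per kilobase, averaged over the 6 libraries, Psmb6 was highest at 254 ± 83.7, followed by Psmb3 at 216 ± 93.6 and Psma7 at 174 ± 83.3 (SD, n = 6). Psmb5 stood at 114 ± 57.7 and Psmb7 at 52.6 ± 11.8 on the same scale, although the mature core holds these subunits in equal number. Compared within each library, Psmb6 exceeded Psma7 in all 6. Psmb3 exceeded Psmb6 in the uninjured library (155 beside 145) and injured 1 (397 beside 363) and lay below it in the others. Psma7 exceeded Psmb3 only in sham 1 (188 beside 184). The ATPase gene Psmc6 was the lowest of the 20S and 19S genes, at 17.8 ± 5.55 CPM per kilobase (SD, n = 6).

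The immunosubunits Psmb8 (β5i), Psmb9 (β1i) and Psmb10 (β2i) replace Psmb5, Psmb6 and Psmb7 in newly built cores. Psmb8 stood at 54.3 and 4.94 CPM in the sham libraries, 32.5 in the uninjured one and 34.9, 10.6 and 2.95 in the injured ones. Psmb9 stood at 25.2 and 0.773 CPM in the sham libraries, 8.20 in the uninjured one and 10, 8.41 and 1.35 in the injured ones. Psmb10 stood at 55.4 and 1.99 CPM in the sham libraries, 12.9 in the uninjured one and 37.6, 18.1 and 6.70 in the injured ones. All 3 were highest in sham 1 and low in sham 2 and injured 3, and the groups overlapped. For Psmb9 and Psmb10 the 2 sham controls alone spanned all injured values. The highest library exceeded the lowest by 18.4-fold, 32.6-fold and 27.9-fold, whereas the 14 standard core genes ranged from 1.53-fold to 4.41-fold and the median of 11289 genes tested and counted in every library was 4.02-fold. A range as wide as 18.4-fold was exceeded by 16.3% of those genes.

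**Figure D2:**
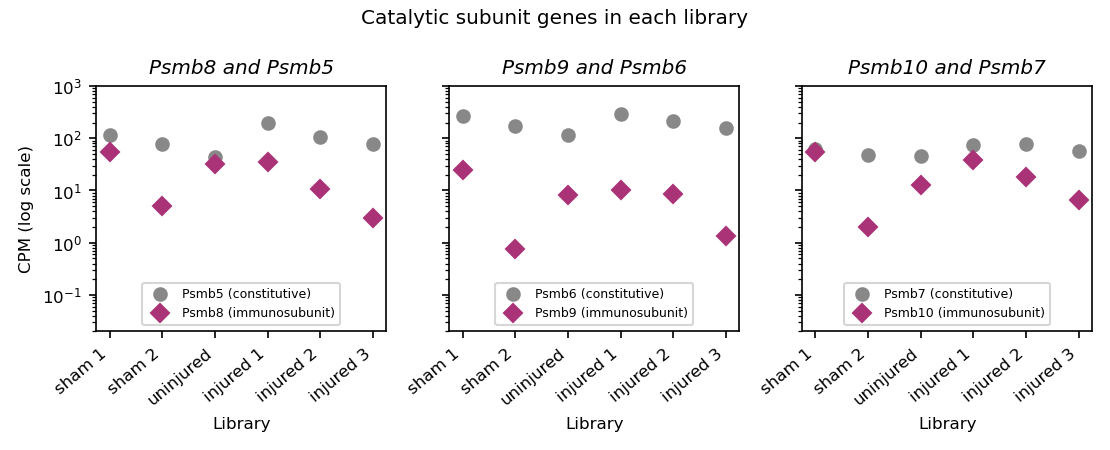
CPM of each immunosubunit gene (diamonds) and of the standard subunit it replaces (circles) in each of the 6 libraries, on a log axis, 1 panel per pair and 1 point per library. The immunosubunit genes vary over more than 10-fold, and the standard ones over at most 4.41-fold.

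Against sham control the log2 fold changes of Psmb8, Psmb9 and Psmb10 were -0.88 ± 1.21, -0.98 ± 1.48 and -0.46 ± 1.25 (SE), with edgeR adjusted p of 0.961, 0.966 and 0.993. Their sign depended on sham 1: without it, with sham 2 as the only sham library, they were 1.71, 3.09 and 3.39. Against all non-injured libraries they were -0.93 ± 1.06, -0.79 ± 1.28 and -0.17 ± 1.12 (SE), and without sham 1 they were -0.22, 0.55 and 1.49. Leaving out sham 1 turned the sign in 5 of these 6 values, and Psmb8 against all non-injured libraries stayed below 0.

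Set against the standard catalytic genes within each library, the 3 immunosubunits made up 15.5% and 1.47% of the summed CPM per kilobase of the 6 catalytic genes in sham 1 and 2. The share was 13.3% in the uninjured library, beside 8.19%, 5.51% and 2.31% in injured 1 to 3. It averaged 5.34% ± 2.94 (SD, n = 3) in injured and 8.47% ± 9.90 (SD, n = 2) in sham control, a difference well inside the spread of the sham libraries. Psmb10 came nearest to its standard partner in sham 1, at 42.3 CPM per kilobase beside 54.4 for Psmb7. Psmb9 stayed farthest in sham 2, at 0.572 CPM per kilobase beside 218 for Psmb6.

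Markers of blood and vessel cells varied over the same libraries. All 10 neutrophil markers were counted in sham 1, injured 1 and injured 3. Injured 2 had counts for 9 of them, the uninjured library for 8 and sham 2 for 6. Their summed level was 558 to 10996 CPM in sham control, 908 in the uninjured library and 95.3 to 6789 in injured. In sham 2, Lcn2, which stromal cells can also express, gave 535 of the 558 CPM, while Ngp, Mpo, Elane and Ly6g were at 0. The 10 macrophage markers summed to 47.3 to 2893 CPM in sham control, 176 in the uninjured library and 37.3 to 4854 in injured, with Adgre1 at 0 in sham 2 and the uninjured library. The 8 endothelial markers summed to 0.746 to 1380.1 CPM in sham control, 624 in the uninjured library and 66.3 to 293 in injured. In sham 2 only Pecam1 and Tek among them were counted. Sham 2 and injured 3, where the immunosubunit genes were lowest, were also the lowest libraries for these 3 lists and the erythroid list below. For lymphocyte markers the uninjured library was the lowest. The order also differed between the uninjured library and injured 2. Their immunosubunit sums were 53.6 and 37.1 CPM, beside 176 and 1217 CPM of macrophage markers. Of the lymphocyte markers, 8 of 10 were counted in sham 1, and their sum was 0.0828 to 76.9 CPM in sham control, 0.0243 in the uninjured library and 0.193 to 37.7 in injured. Erythroid markers (6 of 8 matched) summed to 1.19 to 38763 CPM in sham control, 127 in the uninjured library and 7.34 to 6076 in injured. The part of these cells in the immunosubunit values was not tested.

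**Figure D3:**
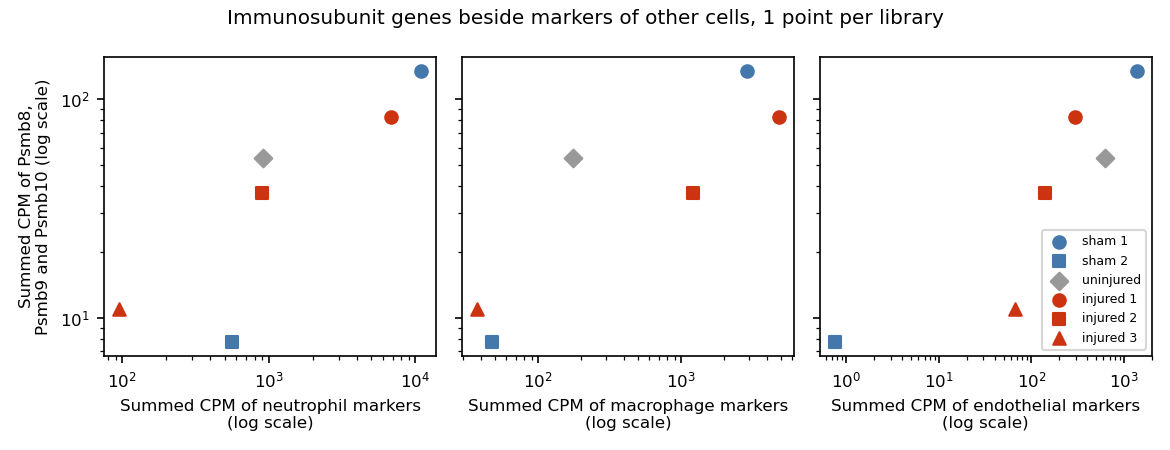
Summed CPM of Psmb8, Psmb9 and Psmb10 (vertical, log axis) beside the summed CPM of neutrophil, macrophage and endothelial markers (horizontal, log axes), 1 point per library. Sham 1 (134.9 CPM) and injured 1 (82.5 CPM) lie at the upper right of the panels for neutrophil and macrophage markers, and sham 2 (7.70 CPM) and injured 3 (11.0 CPM) lie lowest.

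Psmb8 and Psmb9 lie in the class II region of chromosome 17, interleaved with Tap1 and Tap2, which carry peptides into the endoplasmic reticulum. In RefSeq on GRCm38.p6, Psmb9 and Tap1 are divergent neighbours with 225 bases between them, and Tap1 and Psmb8 lie 969 bases apart. Tap1 stood at 62.0 and 15.4 CPM in the sham libraries, 14.9 in the uninjured one and 7.45, 6.11 and 7.07 in the injured ones. All injured values lay below all non-injured ones, with a log2 fold change of -2.49 ± 0.73 against sham control (SE; unadjusted p = 0.0113 and adjusted p = 0.865 by edgeR; DESeq2 adjusted p = 0.0366). Without sham 1, which leaves sham 2 as the only sham library, the edgeR value was -1.16. The DESeq2 call was lost without sham 1 or any 1 injured library, with adjusted p from 0.0942 to 0.687. Psmb9, across the same short interval, overlapped between groups. The difference between these neighbours was not tested.

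The upstream windows of Psmb8, Psmb9, Psmb5 and Psmb6, the catalytic genes whose windows held a searched motif, are printed to show the letters matched for interferon, stress and basal promoter elements. Psmb10 had a window without a match, and none is shown for Psmb7. Each holds 250 bases before the RefSeq start on GRCm38.p6, 5′ to 3′ on the gene's own strand, with matched letters in capitals: a gamma-activated site (TTCNNNGAA) in Psmb8, a GC box (GGGCGG) and a CCAAT box (CCAAT, here on the opposite strand) in Psmb9, and the core of an antioxidant response element (TGACNNNGC) in Psmb5 and Psmb6. The GC box match in Psmb6, on the opposite strand, is not capitalised. The windows are chr17:34197945-34198194 (plus strand), chr17:34187331-34187580 (minus strand), chr14:54617996-54618245 (minus strand) and chr11:70525107-70525356 (plus strand).
Psmb8: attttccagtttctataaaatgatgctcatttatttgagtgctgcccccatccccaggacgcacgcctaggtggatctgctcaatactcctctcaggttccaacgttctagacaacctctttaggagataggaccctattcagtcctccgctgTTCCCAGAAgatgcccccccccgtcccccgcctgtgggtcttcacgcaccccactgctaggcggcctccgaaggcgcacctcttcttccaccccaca
Psmb9: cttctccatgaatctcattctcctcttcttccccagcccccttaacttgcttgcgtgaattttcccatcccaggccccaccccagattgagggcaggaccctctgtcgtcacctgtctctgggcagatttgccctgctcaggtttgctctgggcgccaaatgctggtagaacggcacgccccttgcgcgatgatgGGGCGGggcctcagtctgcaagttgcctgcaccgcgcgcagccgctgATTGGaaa
Psmb5: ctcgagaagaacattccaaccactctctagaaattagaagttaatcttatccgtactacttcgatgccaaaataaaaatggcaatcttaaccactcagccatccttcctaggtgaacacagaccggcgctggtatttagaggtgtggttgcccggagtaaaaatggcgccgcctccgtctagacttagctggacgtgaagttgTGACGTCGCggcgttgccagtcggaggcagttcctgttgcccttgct
Psmb6: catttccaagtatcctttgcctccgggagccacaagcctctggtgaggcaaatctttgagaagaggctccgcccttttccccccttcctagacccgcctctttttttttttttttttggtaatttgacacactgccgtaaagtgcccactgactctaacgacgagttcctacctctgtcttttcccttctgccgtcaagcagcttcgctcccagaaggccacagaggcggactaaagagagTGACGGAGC

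A window was found for 40 of the 48 members (43 windows, as some genes have more than 1 start), and both strands were searched, with overlaps allowed. The antioxidant element core lay in 5 member windows (Psmb5, Psmb6, Psmc6, Psmd12 and Psmd9), 11.6% of them, beside 10.2% of 32851 windows of all genes. It began 47 bases before the start in Psmb5 and 9 bases before it in Psmb6. The gamma-activated site lay in 4.65% of member windows and 7.02% of all, the paired interferon element (GAAA, any pair of bases, GAAA) in 6.98% and 2.98%, and CCAAT in 32.6% and 33.8%. The member windows with the paired interferon element were those of Psmb3, Psmd4 and Psmd9, and 0 of the 3 immunosubunit windows held it. GGGCGG lay in 53.5% of member windows and 32.7% of all, and the NF-kappaB letters (GGGA, any base, TTTCC) in 0% and 0.356%. These are letter matches, and no binding was measured.

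Psma8, the α4 variant of the testis proteasome, had no count in sham 1, sham 2, the uninjured library or injured 1. It had 44 counts in injured 2 and 62 in injured 3, or 0.727 and 1.33 CPM. Against a floor of 3 counts over the group, its injured mean was at least 16.7-fold higher than sham control and at least 26.1-fold higher than all non-injured libraries, and this rests on those 2 libraries, with adjusted p = 0.865 by edgeR against sham control. The bound covers counting error only. Psmb11, the β5 variant of thymic cortical epithelium, had 4 counts in the uninjured library, 1 in injured 3 and none elsewhere, too few for the test.

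The 19S regulatory particle was measured through 17 genes. Of these, 13 had a log2 fold change above 0 against sham control (median 0.33) and 16 against all non-injured libraries (median 0.42). Of all genes, 53.7% and 50.1% did. The injured libraries lay wholly above sham for 6 of 17 and wholly above all others for 4, beside 11.9% and 9.23% of all genes. The mean level was 6.62 and 6.43 log2(CPM + 1) in sham 1 and 2 and 6.31 in the uninjured library, beside 6.89, 6.89 and 6.82 in injured 1 to 3. On this measure the injured libraries lay close together and above the 3 others, whereas for the core they were spread from 6.77 to 7.52. Its median against sham control was 0.49 with library size as the only scaling, which raised the median of all genes from 0.09 to 0.23, and 0.57 without sham 1, where that of all genes was 0.26.

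In the ATPase ring that unfolds substrates, Psmc1 (Rpt2), whose tail docks into the α ring to open the gate, stood at 62.4 and 78.8 CPM in the sham libraries, 94.0 in the uninjured one and 145, 114 and 107 in the injured ones. All injured values exceeded all others, with a log2 fold change of 0.79 ± 0.37 against sham control (SE; unadjusted p = 0.0704 and adjusted p = 0.865 by edgeR), the smallest p of the 19S genes. Psmc5 (Rpt6) stood at 86.7 and 76.7 CPM in the sham libraries, 94.7 in the uninjured one and 159, 88.0 and 94.6 in the injured ones, where injured 2 lay just above sham 1 and injured 2 and 3 below the uninjured library. Psmc2 also lay wholly above in injured in both comparisons (0.33 and 0.46), and Psmc3, Psmc4 and Psmc6 overlapped, with log2 fold changes from -0.07 to 0.37 against sham control.

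Of the non-ATPase base subunits, the scaffold Psmd1 (Rpn2) stood at 120.3 and 75.7 CPM in the sham libraries, 128 in the uninjured one and 154, 154 and 181 in the injured ones. Its injured values, 163 ± 15.4 CPM (SD, n = 3), exceeded the non-injured ones of 108 ± 28.4 (SD, n = 3), with a log2 fold change of 0.73 ± 0.38 against sham control (SE; adjusted p = 0.865 by edgeR). Psmd2 (Rpn1), which holds docking sites for ubiquitin shuttles, stood at 224 and 163 CPM in the sham libraries, 174 in the uninjured one and 184, 279.8 and 292 in the injured ones, and injured 1 fell within the sham range. The ubiquitin receptor Psmd4 (Rpn10) had a log2 fold change of -0.07 against sham control and 0.06 against all non-injured libraries.

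In the lid, the part that removes ubiquitin chains, Psmd6 (Rpn7) had the largest log2 fold change of the 19S genes, 1.04 ± 0.53 against sham control (SE; unadjusted p = 0.0915 and adjusted p = 0.865 by edgeR). It stood at 31.8 and 50.7 CPM in the sham libraries, 55.7 in the uninjured one and 46.4, 121 and 87.0 in the injured ones. Injured 2 and 3 were the highest libraries, but injured 1 lay below sham 2 and the uninjured library, so the groups overlapped. Psmd12 (Rpn5) stood at 49.1 and 50.5 CPM in the sham libraries, 74.3 in the uninjured one and 63.4, 83.8 and 86.3 in the injured ones, all injured values above sham and injured 1 below the uninjured library. Psmd3 lay wholly above in both comparisons (0.41 and 0.60). Psmd14 (Rpn11), the deubiquitinase of the lid, overlapped, with 70.1 and 77.7 CPM in the sham libraries, 33.3 in the uninjured one and 59.0, 102 and 96.0 in the injured ones. Psmd7, Psmd8, Psmd11 and Psmd13 also overlapped in both comparisons, with log2 fold changes from -0.07 to 0.29 against sham control.

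**Figure D4:**
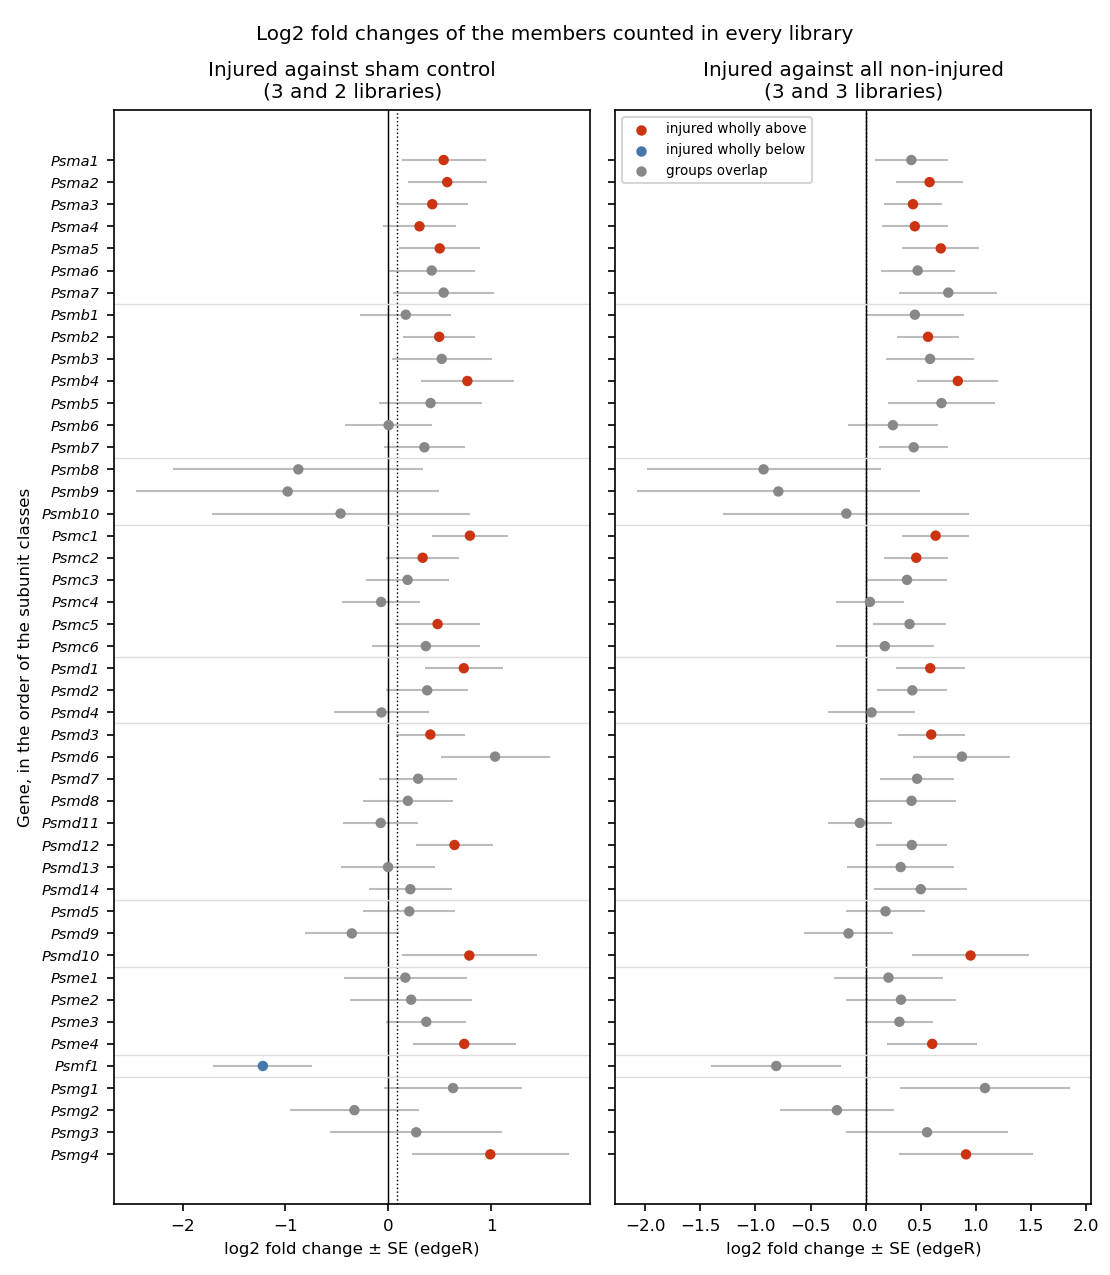
Log2 fold change with its standard error (edgeR) of the 46 members counted in every library, injured against sham control on the left and against all non-injured libraries on the right; the dotted line marks the median of all genes and colour marks whether the injured libraries lie wholly above, wholly below or overlap the others. The 14 core genes lie at or above 0 in both panels, and Psmf1 is the only member wholly below, on the left.

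Length went with the way the injured libraries differed from each other. Over the 31 core and 19S genes, the log2 ratio of injured 1 to injured 3 had a Spearman's rho of -0.55 with transcript length, across genes that share these 2 libraries and are not independent. Over the core and the 19S genes apart it was -0.38 and -0.43. Over 14717 genes of all kinds with a length, rho was -0.36. All 14 core genes, with a median length of 1163 bases, were higher in injured 1 than in injured 3, against 10 of the 17 19S genes, with a median of 1636 bases. Of the 14717 genes of all kinds, 6158 were higher in injured 1, with a median log2 ratio of -0.16. The medians of the core and the 19S genes were 0.70 and 0.14. Between sham 1 and sham 2 rho was -0.01 over the 31 genes, -0.20 over the core alone and -0.15 over all 14717. For the ratio of injured 1 to sham 1 and to sham 2 it was -0.41 and -0.31 over the 31 genes, beside -0.10 and -0.25 over all. Within the classes it was weaker, at -0.01 and -0.10 over the core and -0.16 and -0.23 over the 19S genes. For these ratios the pooled values do not separate length from class, as the core genes are the shorter ones, and the part of each was not tested. For injured 3 it was 0.30 and 0.42 over the 31 genes, beside 0.22 and 0.11 over all. Within the classes it was 0.30 and 0.39 over the core and 0.34 and 0.25 over the 19S genes. The signs were opposite in these 2 injured libraries, with the core values for injured 1 close to 0. Psmb3, of 766 bases, had a log2 ratio of 1.41 and Psmd2, of 2961 bases, one of -0.67. The part of length in the comparisons with injury was not tested.

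**Figure D5:**
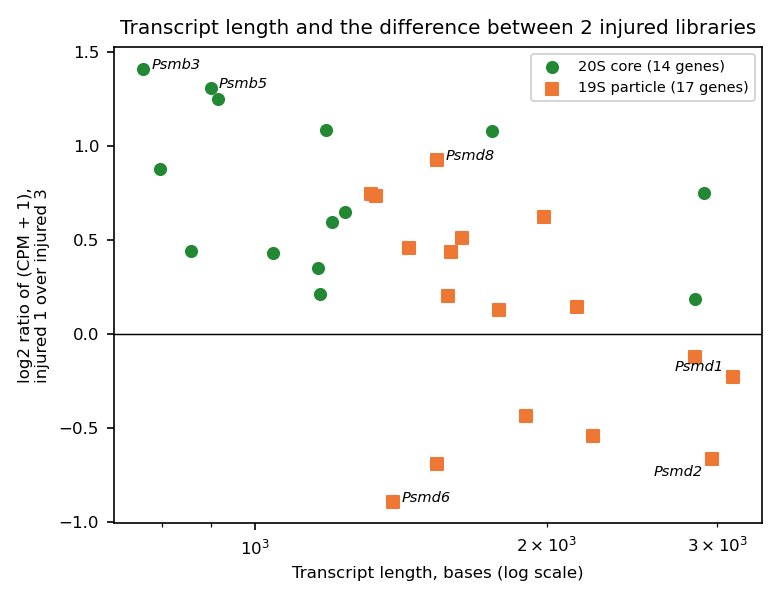
Transcript length in bases (log axis) and the log2 ratio of CPM + 1 between injured 1 and injured 3, for the 14 core genes (circles) and 17 genes of the 19S particle (squares), 1 point per gene. All 14 core genes lie above 0, and the 3 longest 19S genes lie below it.

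The regulatory particle is built with the chaperones Psmd5 (S5b), Psmd9 (p27) and Psmd10 (gankyrin). Psmd10 stood at 9.49 and 13.0 CPM in the sham libraries, 7.50 in the uninjured one and 19.1, 23.0 and 16.3 in the injured ones. All injured values exceeded all non-injured ones, with a log2 fold change of 0.95 ± 0.53 against the latter (SE; unadjusted p = 0.116 and adjusted p = 0.801 by edgeR). Psmd9 stood at 56.6 and 30.7 CPM in the sham libraries, 26.3 in the uninjured one and 33.6, 36.9 and 31.8 in the injured ones, and its sign against sham control turned from -0.35 to 0.15 without sham 1. Psmd5 overlapped, with a log2 fold change of 0.20.

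The core is assembled by the chaperone pairs Psmg1 with Psmg2 and Psmg3 with Psmg4. Psmg4 (PAC4) stood at 10 and 8.56 CPM in the sham libraries, 10.8 in the uninjured one and 30.0, 14.2 and 11.3 in the injured ones. All injured values exceeded the 3 others, but injured 3 lay close to the uninjured library, and the log2 fold change of 0.99 ± 0.76 against sham control (SE; adjusted p = 0.865 by edgeR) rested mainly on injured 1. It was 0.45 without that library. Psmg1 (PAC1) stood at 31.2 and 9.66 CPM in the sham libraries, 3.72 in the uninjured one and 36.4, 35.6 and 22.7 in the injured ones, the widest range of any member counted in every library apart from the immunosubunits, and sham 1 lay among the injured values. Its log2 fold change against sham control, 0.63 ± 0.67 (SE), was 1.71 without sham 1 and 0.021 without sham 2. Their partners Psmg2 and Psmg3 overlapped, with log2 fold changes of -0.33 ± 0.62 and 0.27 ± 0.83 against sham control (SE).

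The activators open the core in place of, or beside, the 19S particle. Psme1 and Psme2, the interferon-inducible subunits of PA28αβ, stood at 55.5 and 25.5 CPM in the sham libraries, 36.7 in the uninjured one and 64.3, 49.3 and 22.8 in the injured ones, and at 85.4 and 49.1 CPM in the sham libraries, 53.3 in the uninjured one and 111, 91.7 and 32.5 in the injured ones, respectively. Both were lowest in injured 3 and highest in injured 1, with log2 fold changes of 0.17 ± 0.60 and 0.22 ± 0.59 against sham control (SE) that turned negative without injured 1 (-0.17 and -0.11). Each sign reversed under 2 of 13 alternatives, with lowest values of -0.29 and -0.12 on leaving out 1 library. A near-identical copy, Psme2b, makes the value of Psme2 uncertain. Psme3, which forms the nuclear activator PA28γ, stood at 82.2 and 52.6 CPM in the sham libraries, 75.5 in the uninjured one and 81.0, 81.0 and 99.4 in the injured ones, with only injured 3 above sham 1. Psme4 (PA200), the large nuclear activator, stood at 24.0 and 49.5 CPM in the sham libraries, 46.9 in the uninjured one and 52.3, 50.3 and 81.5 in the injured ones. All injured values of Psme4 exceeded all others, injured 2 by little, with a log2 fold change of 0.74 ± 0.50 against sham control (SE; adjusted p = 0.865 by edgeR). That value was 0.31 without sham 1 and 1.36 without sham 2.

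Psmf1 encodes PI31, found as an inhibitor of the 20S core and also described as an adaptor for its transport and assembly. It stood at 47.5 and 47.8 CPM in the sham libraries, 12.1 in the uninjured one and 14.3, 22.9 and 24.2 in the injured ones. The sham libraries were nearly equal at 47.7 ± 0.200 CPM (SD, n = 2), and the injured ones were lower at 20.5 ± 5.41 CPM (SD, n = 3), with no overlap. The log2 fold change was -1.22 ± 0.48 (SE; unadjusted p = 0.0394 and adjusted p = 0.865 by edgeR; DESeq2 adjusted p = 0.134). The uninjured library, at 12.1 CPM, was the lowest of all 6, so against all non-injured libraries the groups overlapped, with a log2 fold change of -0.81 ± 0.59 (SE; adjusted p = 0.872 by edgeR). Without any 1 of the sham or injured libraries the unadjusted p against sham control no longer fell under 0.05, while the log2 fold change stayed between -1.38 and -1.02.

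Proteins that work with the proteasome under other names were read from 4 further lists. Of 11 partners, 10 were matched. Against sham control 6 of 10 lay above 0 and against all non-injured libraries 7 of 10, beside 53.7% and 50.1% of all genes. Neither edgeR nor DESeq2 called any of the 10, where DESeq2 called 2.66% and 3.34% of all genes and edgeR 0%. At an unadjusted p under 0.05 edgeR gave Usp14 against sham control and Txnl1, a proteasome-bound thioredoxin-like protein, against all non-injured libraries. That level was reached by 4.64% and 7.43% of all genes. Txnl1, named after its values were seen, stood at 51.7 and 75.4 CPM in the sham libraries, 61.0 in the uninjured one and 98.7, 113 and 99.98 in the injured ones. All its injured values exceeded the others, with log2 fold changes of 0.71 ± 0.38 and 0.72 ± 0.29 (SE; unadjusted p = 0.103 and 0.0410 and adjusted p = 0.865 and 0.633 by edgeR). The deubiquitinases Usp14 and Uchl5, which trim ubiquitin at the 19S particle, stood at 17.7 and 22.7 CPM in the sham libraries, 42.2 in the uninjured one and 29.6, 55.1 and 74.6 in the injured ones, and at 8.14 and 9.11 CPM in the sham libraries, 11.0 in the uninjured one and 22.8, 16.7 and 22.1 in the injured ones. Usp14 had a log2 fold change of 1.39 ± 0.54 against sham control (SE; unadjusted p = 0.0373 and adjusted p = 0.865 by edgeR), its injured libraries above sham but overlapping the uninjured one. Uchl5 lay wholly above in injured in both comparisons, at 1.25 ± 0.65 and 1.12 ± 0.51 (SE; adjusted p = 0.865 and 0.715 by edgeR).

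Of 14 genes that supply or shuttle ubiquitin, 9 were above 0 against sham control and 11 against all non-injured libraries. Over all genes 53.7% and 50.1% were above 0. Neither edgeR nor DESeq2 called any of the 14, where DESeq2 called 2.66% and 3.34% of all genes. By edgeR 0 of the 14 had an unadjusted p under 0.05, beside 4.64% and 7.43% of all genes. Nploc4, a cofactor of the segregase Vcp, stood at 135 and 118 CPM in the sham libraries, 99.0 in the uninjured one and 64.5, 87.7 and 82.0 in the injured ones, wholly below in injured in both comparisons, with a log2 fold change of -0.70 ± 0.35 against sham control (SE; adjusted p = 0.865 by edgeR). The shuttle Ubqln1 stood at 38.4 and 94.0 CPM in the sham libraries, 76.4 in the uninjured one and 87.4, 105 and 151 in the injured ones.

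Among 5 regulators of proteasome gene transcription, Nfe2l1 (Nrf1), the factor that raises subunit genes when the proteasome is impaired, stood at 129 and 128 CPM in the sham libraries, 180.0 in the uninjured one and 63.1, 129 and 149 in the injured ones, the groups overlapping. The related Nfe2l3 was at 0 in all non-injured libraries and in injured 2, and at 6.25 and 1.43 CPM in injured 1 and 3. Ngly1, the glycanase that processes Nfe2l1, stood at 32.5 and 47.9 CPM in the sham libraries, 43.2 in the uninjured one and 24.5, 31.4 and 35.5 in the injured ones. None of the 5 passed by edgeR or DESeq2, where DESeq2 called 2.66% and 3.34% of all genes. Against sham control 2 of the 5 regulators had a log2 fold change above 0 and 3 below (median -0.17), beside 53.7% of all genes above 0. The 2 above 0 were Ddi2, at 0.06, and Nfe2l3, which was tested only through its counts in injured 1 and 3. Against all non-injured libraries 4 were tested, without Nfe2l3, and 0 of them lay above 0 (median -0.27), beside 50.1% of all genes.

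Of the 8 interferon and class I genes, 1 had a fold above 0 against sham control (median -0.90), and of 7 tested against all non-injured libraries 0 did (median -0.94), beside 53.7% and 50.1% of all genes. The 1 above 0 was Nlrc5, at 0 in both sham libraries and in injured 1, and tested only through its counts in injured 2 and 3. By edgeR 0 of this list passed. DESeq2 called Tap1 against sham control and Irf1 against all non-injured libraries, 1 gene in each, beside 2.66% and 3.34% of all genes. Tap1 and Irf1 had an unadjusted p under 0.05 by edgeR in both comparisons, as 4.64% and 7.43% of all genes did. Both also lay wholly below in injured in both comparisons, as 9.13% and 7.07% of all genes did. The list summed to 1114 and 582 CPM in the sham libraries, 924 in the uninjured one and 602, 523 and 365 in the injured ones. The endothelial markers, with 0 of 8 above 0 in either comparison, summed to 1380.1 and 0.746 CPM in the sham libraries, 624 in the uninjured one and 293, 141 and 66.3 in the injured ones. Their part in the values of this list was not tested. Irf1, an interferon-induced transcription factor that acts on the Tap1 and Psmb9 promoters, stood at 182 and 94.7 CPM in the sham libraries, 267 in the uninjured one and 66.9, 67.0 and 57.0 in the injured ones. All injured values lay below all others, with log2 fold changes of -1.12 ± 0.40 and -1.52 ± 0.42 in the comparisons (SE; adjusted p = 0.865 and 0.452 by edgeR; DESeq2 adjusted p = 0.219 and 0.0394). Against sham control the edgeR value was -0.57 without sham 1. The DESeq2 call against all non-injured libraries was kept without sham 2 and lost without any other library, with adjusted p from 0.0800 to 0.212. The class I light chain B2m stood at 448 and 282 CPM in the sham libraries, 313 in the uninjured one and 283, 287 and 189 in the injured ones, and the groups overlapped at injured 1 and 2.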

How the data were processed

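Per the labels' protocols, cDNA was made and amplified from 150 pg of RNA of sorted cells with a SMARTer kit. The deposited table holds whole-number counts per gene symbol, taken as unscaled. Per the submitters' processing notes, the authors used Salmon 0.12.0, DESeq2 1.22.2 and DESeq, and the builds GRCm38.p6 and mm9 are named with no role. For the annotation, the rounding and the use of strand, nothing is stated in the sources used, so pseudogene copies (Psmb5, Psmb6, Psmb7, Psma5) and antisense genes may share reads. Whether scaling preceded the rounding is not stated either.

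All genes were fitted with edgeR 4.0.16 (R 4.3.3): TMM scaling, filterByExpr with a minimum count of 10, quasi-likelihood F test, Benjamini-Hochberg adjustment over all genes tested, threshold 0.05. One fit held 6 libraries in 3 groups and the other in 2. Standard errors were derived from the F statistic and were not checked by simulation. The test was tried on simulated counts for its recovery of changed genes and their direction. Those counts had the same spread for every gene, unlike these libraries. Means of log2 levels used a pseudocount of 1 CPM, and bounds a floor of 3 counts. Transcript lengths were those of GENCODE vM21 (48 of 48 matched), and upstream windows and neighbours those of RefSeq. For each gene the longest protein-coding transcript marked as principal was taken. Levels per kilobase and the correlations with length rest on that choice, and which transcript these cells express was not tested.

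Members and lists were chosen with earlier results of these data known. Values in every library are given for the catalytic pairs, Psma8, Psmb11, the activators and Psmf1, the 2 members of each class and list and the 5 members overall with the smallest p. Further genes with values (Psmd14, Psmg2, Psmg3, Nfe2l1, B2m, Txnl1) were chosen after these were seen. Paaf1, Hbb-bt and Ahsp had no match. Alternatives were other scalings, no filter, DESeq2 1.42.0, limma-voom (limma 3.58.1), libraries left out, other pseudocounts and a replicate block.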

Additional observations from a re-analysis of the deposited data

How the results depend on the processing

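No member passed an adjusted p of 0.05 under any of the 13 alternatives against sham control or the 12 against all non-injured libraries, by edgeR, DESeq2 or limma-voom. Over all genes edgeR called 0 and 0 in these comparisons, DESeq2 436 and 489, limma-voom 1 and 7, and edgeR without a filter on low counts 3 and 5. For Tap1 and Irf1, left-out libraries were tried after the data were seen. Of 663 values of 53 named results, 627 kept their direction and 36 reversed. The 6 libraries of amplified RNA limit what can be detected, and the cause of each reversal was not tested. The number of members at an unadjusted p under 0.05 and higher against sham control (0) was 1 with library size alone, 3 without sham 1 and injured 1 together and 0 to 1 leaving out 1 library. The number lower (1, Psmf1) was 0 under library size alone and under that joint omission, and 0 to 0 leaving out 1 sham or injured library, and stayed at 1 without the uninjured one. Against all non-injured libraries the number higher (0) was 2 with library size alone, 1 with DESeq2, 1 with limma-voom, 4 under the joint omission and 0 to 2 leaving out 1 library, and the number lower (0) was 0 to 1.

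Leaving out 1 library, the log2 fold change against sham control ran from -0.27 to 0.34 for Psmb6, -0.045 to 0.72 for Psmb5, -0.29 to 0.83 for Psme1, -0.12 to 0.68 for Psme2, -2.13 to 1.71 for Psmb8, -1.93 to 3.09 for Psmb9, -1.41 to 3.39 for Psmb10 and -0.73 to 0.15 for Psmd9. Against all non-injured libraries it ran from -0.016 to 0.61 for Psmb6, -0.12 to 0.55 for Psme1, -0.012 to 0.66 for Psme2, -1.34 to 0.55 for Psmb9, -0.91 to 1.49 for Psmb10 and -0.37 to 0.26 for Psmd9. Without the uninjured library Psmb6 stood at -0.016 against sham control. Under size factors by relative log expression and under DESeq2 Psmb6 stood at -0.070 each, and under limma-voom Psmb6 at -0.010, Psmb9 at 0.17 and Psmb10 at 0.62 (0.52 for Psmb10 against all non-injured libraries). Without sham 1 and injured 1 together, Psmb8, Psmb9, Psmb10 and Psmd9 stood at 0.45, 2.65, 2.64 and 0.16 against sham control, and Psmb9, Psmb10 and Psmd9 at 0.12, 0.74 and 0.27 against all non-injured libraries. The 20S core kept 11 to 14 of 14 genes above 0 under all of these settings.

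With the replicate number as a block, 0 members had an unadjusted p under 0.05 in the lower direction, and Psmb8, Psmb9 and Psmb10 stood at 0.20, 1.01 and 1.28 against sham control. The block changed no adjusted call. Deviations from the group means correlated at 0.35 between sham 1 and injured 1 and at 0.01 between sham 2 and injured 2. The highest value, 0.43, lay between sham 2 and injured 3, which do not share a number. As the deviations of the 2 sham libraries mirror each other, these values are not separate. With 2 pairs the libraries share only a number. The uninjured library carries no number, so no paired fit was made for the comparison with all non-injured libraries.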
